A study of Mus musculus with 16 samples.

Results

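The genes described here are 10 genes of the KEAP1-NRF2 antioxidant pathway, measured as RNA in 16 mouse livers. They were chosen by name, as the transcription factor Nfe2l2 (the gene of NRF2), its inhibitor Keap1 and the classic target genes Nqo1, Gclc, Gclm, Hmox1, Srxn1, Txnrd1, Gsta1 and Ugdh, with the mu-class glutathione transferases left out. All 10 matched an Ensembl gene among the 53801 in the count table, and all 10 were among the 14351 genes that passed the filter on low counts.

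NRF2 is a transcription factor that cells make and destroy continuously. KEAP1 holds it for ubiquitination by the CUL3 ligase, and electrophiles or peroxides that modify cysteines of KEAP1 let newly made NRF2 escape, enter the nucleus, pair with a small MAF protein and bind antioxidant response elements. In liver the pathway is known for setting the capacity for glutathione synthesis, for the repair of oxidised peroxiredoxins and for the conjugation of drugs and quinones. Much of its control is on the NRF2 protein, which RNA counts do not measure.

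The livers came in 4 groups of 4: liver-specific Degs1 knockouts on a high-fat diet, controls on a high-fat diet, knockouts on normal chow and controls on normal chow. Degs1 encodes dihydroceramide desaturase, the last enzyme of ceramide synthesis. The sources used here do not give the Cre driver, the age, sex and strain of the mice, the length of feeding or the genotype of the controls, and each liver has its own animal number. The p-values below set differences between groups against the spread between these livers.

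Total counts were 13572441 to 16559537 in knockouts and 14020001 to 18728453 in controls on the high-fat diet, and 11938596 to 18235419 in knockouts and 14417061 to 23250885 in controls on chow. Degs1 fell in the knockouts of each diet, with no overlap with the controls. On the high-fat diet its level was 31.3 ± 7.01 CPM (read counts scaled to a common library size, with TMM factors) in knockouts and 73.4 ± 18.9 CPM in controls (n = 4 each, SD), with a two-sided exact permutation p of 0.0286. On chow the knockouts were at 38.0 ± 1.65 CPM and the controls at 84.7 ± 3.13 CPM (n = 4 each, SD), with the same exact permutation p of 0.0286, the smallest that 4 livers against 4 allow. The animal numbers run 82 to 92 in high-fat knockouts, 61 to 76 in high-fat controls, 179 to 187 in chow knockouts and 194 to 220 in chow controls, so anything that goes with animal number cannot be told apart from the groups. The summed hepatocyte markers (Alb, Apoa1, Ttr, Apob, Tat and Cps1, with no marker at 0) lay between 74800 and 159000 CPM, which fits whole liver. A proxy for unspliced RNA (called the unspliced share below), the percentage of counts on sense-intronic and unverified gene types, was 0.162 to 0.191% in high-fat knockouts, 0.0218 to 0.164% in high-fat controls, 0.0463 to 0.0878% in chow knockouts and 0.0263 to 0.0411% in chow controls. It did not overlap between high-fat and chow knockouts, or between knockouts and controls on chow, and overlapped little between the genotypes on the high-fat diet. A model that holds it therefore cannot separate it well from the diet in knockouts or from the genotype on either diet. High-fat control 3 and chow knockout 1 stood apart from the other libraries. Their Pearson r of log2(CPM + 1) with livers of their own group was 0.9445 to 0.9707 and 0.9714 to 0.9741. The fits were repeated without them, and some but not all values that rest on them are given both ways. In whole liver, fewer cells of a type and less RNA per cell cannot be told apart.

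The antioxidant response element is often written by its core, TGACNNNGC, which was searched on both strands of RefSeq promoters of GRCm38.p6 (250 bases before to 50 after each start). The core was in 4071 of 32851 promoters (12.4%). The table held 10 promoters of 8 of the pathway genes (Nfe2l2, Keap1, Nqo1, Gclm, Srxn1, Txnrd1, Gsta1 and Ugdh), and 5 of these 10 (50.0%) held the core, each in a different gene. The promoters of Srxn1 and Gclm are printed because these are the pathway genes that passed the test below. That of Ugdh is printed because its level followed that of Srxn1 once group means were removed (Pearson r 0.72) and it holds the core. Gsta1 followed Srxn1 more closely (0.89), but its promoter held no core and is not printed. The printed promoters thus all hold the core by choice, and they do not show that genes that move together share it. Each sequence is printed in the direction of its gene, and capitals mark the core, which runs against the gene in Srxn1, in Gclm and at the second place in Ugdh and so appears there as its reverse complement.
Srxn1, chr2:152105274-152105573, plus strand: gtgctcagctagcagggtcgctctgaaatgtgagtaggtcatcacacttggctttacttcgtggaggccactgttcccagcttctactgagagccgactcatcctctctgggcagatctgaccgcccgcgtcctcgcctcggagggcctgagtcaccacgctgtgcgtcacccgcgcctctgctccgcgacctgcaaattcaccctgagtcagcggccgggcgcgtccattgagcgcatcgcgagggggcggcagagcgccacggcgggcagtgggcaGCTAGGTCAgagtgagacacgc
Gclm, chr3:122245307-122245606, plus strand: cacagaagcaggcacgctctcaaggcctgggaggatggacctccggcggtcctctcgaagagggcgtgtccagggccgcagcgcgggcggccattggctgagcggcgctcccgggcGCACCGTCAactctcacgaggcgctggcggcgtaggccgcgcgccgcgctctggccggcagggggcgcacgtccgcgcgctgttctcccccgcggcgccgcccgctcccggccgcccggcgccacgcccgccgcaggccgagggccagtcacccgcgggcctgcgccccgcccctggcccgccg
Ugdh, chr5:65435793-65436092, minus strand: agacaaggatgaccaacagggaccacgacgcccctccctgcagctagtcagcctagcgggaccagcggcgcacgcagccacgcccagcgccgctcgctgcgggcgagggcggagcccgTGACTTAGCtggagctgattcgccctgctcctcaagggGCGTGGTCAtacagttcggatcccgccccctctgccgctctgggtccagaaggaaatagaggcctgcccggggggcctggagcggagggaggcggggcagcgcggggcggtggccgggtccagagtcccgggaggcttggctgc
Counting the start as 0, the core was TGACctaGC at 28 to 36 in Srxn1, TGACggtGC at -134 to -126 in Gclm, and TGACttaGC at -132 to -124 and TGACcacGC at -94 to -86 in Ugdh. Nfe2l2 held TGACtccGC at -240 to -232, and the second of 3 promoters of Txnrd1 held TGACaaaGC at -92 to -84. The core followed directly by an A was in 999 promoters (3.04%) and, among the pathway genes, in Txnrd1. No core was in these windows of Keap1, Nqo1 or Gsta1. A match is a stretch of letters, not a measured binding site.

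Per kilobase of exon, Gclc was the most abundant of the 10 transcripts, with group means of 85.7 to 111 CPM per kb. Gclm followed at 27.0 to 38.6, Ugdh at 21.3 to 27.8, Txnrd1 at 19.4 to 24.2, Srxn1 at 15.6 to 25.1 and Nfe2l2 at 16.9 to 21.9 CPM per kb, with overlapping ranges. Hmox1 (9.21 to 12.9) and Keap1 (8.93 to 11.2) were lower, Nqo1 lower again (3.32 to 6.26), and Gsta1 was close to the limit of detection at 0.370 to 1.51 CPM per kb. A level of 3 counts corresponded to 0.135 to 0.293 CPM in these libraries.

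**Figure D1:**
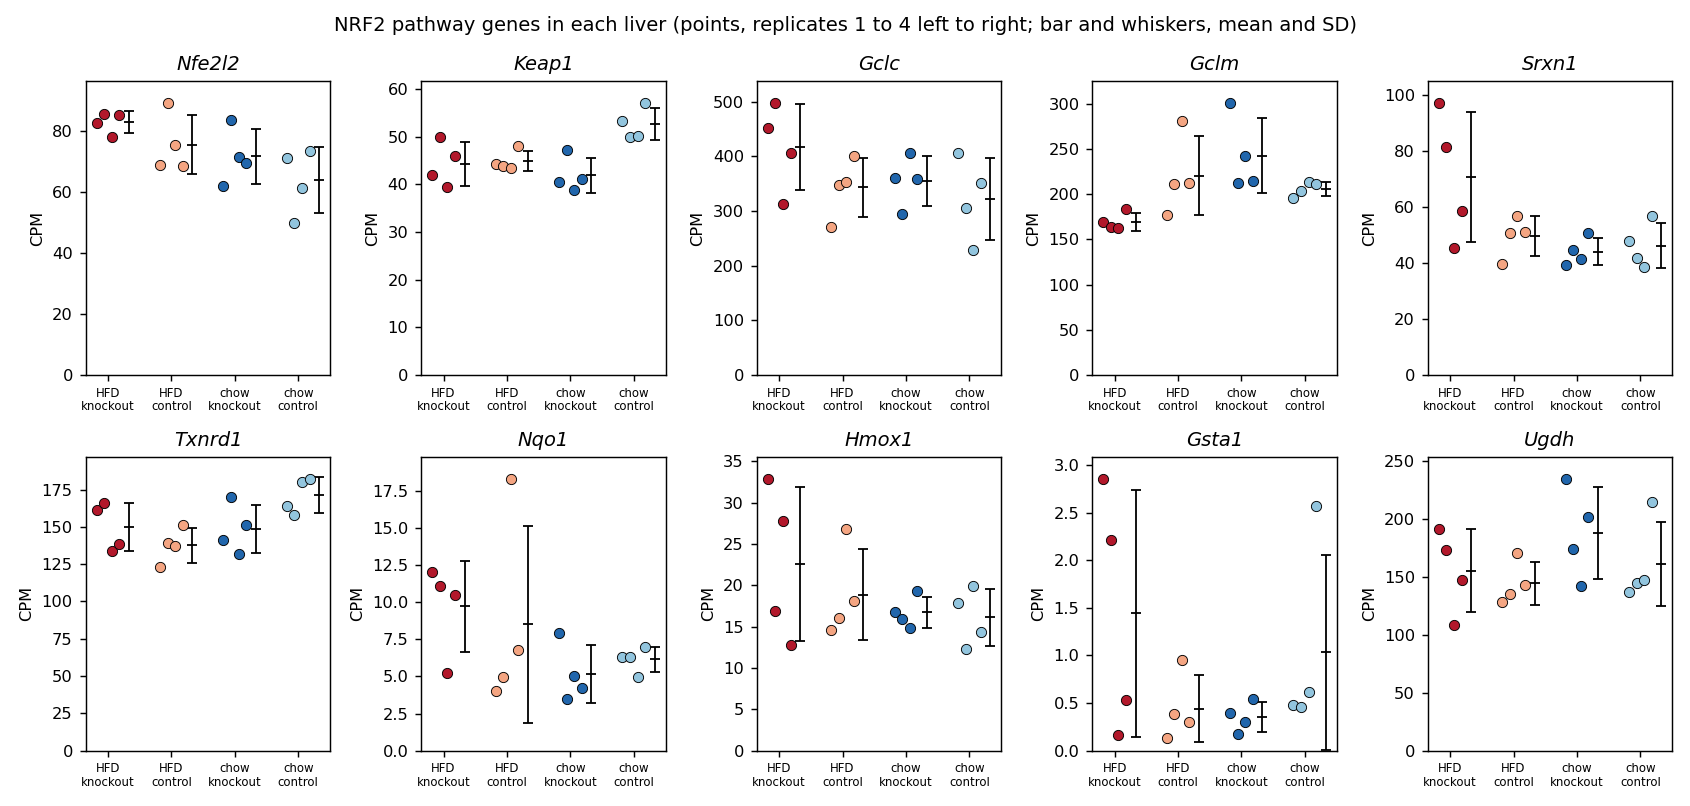
CPM of each of the 10 genes (one panel each, y axis from 0) in high-fat knockout, high-fat control, chow knockout and chow control livers. Points are livers, and the bar and whiskers are the mean and SD of 4; Srxn1 reaches 97.3 and 81.5 CPM in high-fat knockouts 1 and 2, and Gclm in all 4 high-fat knockouts lies below all 4 chow knockouts.

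None of the 10 genes passed the test for knockout against control on either diet, and with the high-fat diet Srxn1 rose and Gclm fell in knockouts. On the high-fat diet 0 of 10 had an adjusted p under 0.05 for knockout against control (edgeR quasi-likelihood test, Benjamini-Hochberg over all genes), where 0.111% of all genes tested did. Of the 10, 3 had an unadjusted p under 0.05 (Gclm, Srxn1 and Gsta1), against 21.4% of all genes. The median log2 fold change of the 10 was 0.17, against 0.03 for all genes, and 0 of the 10 had groups that did not overlap, against 13.2% of all genes. On chow 0 of 10 passed, where 0.0139% of all genes did, and 1 had an unadjusted p under 0.05 (Keap1), against 9.52% of all genes. The median there was -0.01 for the 10 and -0.01 for all genes, and 1 of 10 (Keap1) had groups that did not overlap, against 6.34%. DESeq2 and limma-voom also called 0 of the 10 on each diet. For the 8 genes other than Nqo1 and Gsta1, the 95% intervals of the knockout effect spanned -0.68 to 0.93 with high-fat feeding and -0.56 to 0.63 with chow (log2). No interval of these 8 genes reached beyond those bounds.

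For the high-fat diet against chow, 2 of 10 genes passed in knockouts, 1 higher (Srxn1) and 1 lower (Gclm), where 10.6% of all genes passed (5.21% higher and 5.35% lower). At an unadjusted p under 0.05 there were 4 of the 10 (Srxn1, Gclm, Nqo1 and Gsta1), against 28.8% of all genes. The median of the 10 was 0.22, against 0.02 for all genes, and 1 of 10 (Gclm) had groups that did not overlap, against 24.5% of all genes. In controls 0 of 10 passed, where 1.83% of all genes did. There, 1 gene had an unadjusted p under 0.05 (Txnrd1), against 17.1% of all genes, and DESeq2 and limma-voom called 0 as well. The median in controls was 0.09 for the 10 and 0.01 for all genes, and 2 of 10 (Keap1 and Txnrd1) had groups that did not overlap, against 7.23%. The interaction of genotype and diet passed for 0 of the 10 genes, where 0% of all genes did. For it, 2 genes had an unadjusted p under 0.05 (Gclm and Gsta1), against 11.3% of all genes, and DESeq2 and limma-voom called 0 of the 10. The contrasts share groups of livers and are not independent of each other.

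No contrast of the pair of genes at the top of the pathway passed the test. Nfe2l2 (chromosome 2, 75675513 to 75704641, minus strand, GRCm38) was 83.0 ± 3.58 CPM in high-fat knockouts, 75.5 ± 9.71 in high-fat controls, 71.7 ± 8.92 in chow knockouts and 64.0 ± 10.7 in chow controls (SD, n = 4 each). Its livers overlapped in all 4 comparisons, and its log2 fold changes lay between 0.14 and 0.24 (adjusted p = 0.327 to 0.706 by edgeR).

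Keap1, the sensor (chromosome 9, 21229730 to 21239361, minus strand), was at 40.5, 47.2, 38.8 and 41.2 CPM in chow knockouts, against 53.3, 50.0, 50.1 and 57.1 CPM in chow controls. Every chow knockout was below every chow control. The log2 fold change was -0.33 (standard error, SE, 0.11), with an unadjusted p of 0.00856 and an adjusted p of 0.426 (edgeR quasi-likelihood test, Benjamini-Hochberg over all genes tested). On the high-fat diet Keap1 was at 41.9, 49.9, 39.4 and 46.0 CPM in knockouts, against 44.3, 43.9, 43.5 and 48.0 CPM in controls, and these overlapped (log2 fold change -0.02, SE 0.11, adjusted p = 0.927 by edgeR). The 4 high-fat controls were all below the 4 chow controls, with a log2 fold change of -0.23 (SE 0.11, adjusted p = 0.301 by edgeR). Chow controls had the highest mean Keap1 of the 4 groups, and no Keap1 contrast passed the test over all genes. An antisense gene, Gm16754, covers 10.9% of the exon bases of Keap1 and had at most 3 counts in any liver.

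The first step of glutathione synthesis is run by glutamate-cysteine ligase, whose catalytic subunit is the product of Gclc and whose modifier subunit, which raises its efficiency, is the product of Gclm. Gclc (chromosome 9, 77754535 to 77794485, plus strand) averaged 417 ± 79.1 CPM in high-fat knockouts, 343 ± 53.7 in high-fat controls, 355 ± 45.9 in chow knockouts and 323 ± 75.0 in chow controls (SD, n = 4 each). Its log2 fold change was 0.28 (SE 0.18, adjusted p = 0.373 by edgeR) for knockout against control on the high-fat diet and 0.23 (SE 0.18, adjusted p = 0.424) for high-fat diet against chow in knockouts.

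Gclm (chromosome 3, 122245557 to 122270732, plus strand) was lower in knockouts on the high-fat diet than in knockouts on chow. It was at 169, 164, 162 and 184 CPM in high-fat knockouts, against 301, 213, 243 and 215 CPM in chow knockouts, with every high-fat knockout below every chow knockout. Gclm fell by 0.52 on the log2 scale (SE 0.15, 95% interval -0.82 to -0.21, 0.699-fold, adjusted p = 0.0321 by edgeR). High-fat controls were at 177, 211, 281 and 213 CPM, against 196, 204, 213 and 211 CPM in chow controls, and overlapped with them (log2 fold change 0.10, SE 0.15, adjusted p = 0.799 by edgeR). High-fat knockouts and high-fat controls overlapped too, with a log2 fold change of -0.38 (SE 0.15, unadjusted p 0.0181, adjusted p = 0.152 by edgeR). The difference between the diet effects in knockouts and in controls, tested as an interaction, was -0.61 (SE 0.21, adjusted p = 0.291 by edgeR), which did not pass.

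The Gclm call depended on the libraries and on the fit. It was lost when any 1 of the 8 knockout livers was left out, with log2 fold changes of -0.57 to -0.39 and edgeR adjusted p of 0.0507 to 0.104, and without chow knockout 1, its highest liver, the value was -0.39 (0.0876). In a model that also held the unspliced share the value was -0.35 (SE 0.16, adjusted p = 0.201 by edgeR), though that share did not overlap between the diets in knockouts. With upper-quartile factors it was -0.43 (0.0723) and without the count filter -0.50 (0.0801). Gclm and the log2 unspliced share had a Pearson r of -0.58 over the 16 livers and -0.47 with group means removed.

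Sulfiredoxin, the product of Srxn1, reactivates peroxiredoxins that peroxide has over-oxidised. Srxn1 (chromosome 2, 152105516 to 152111376, plus strand) was at 97.3, 81.5, 45.3 and 58.5 CPM in high-fat knockouts, against 39.3, 44.8, 41.6 and 50.7 CPM in chow knockouts. High-fat knockouts 1, 2 and 4 were above all chow knockouts, and high-fat knockout 3 was among them. Srxn1 rose by 0.68 on the log2 scale (SE 0.20, 95% interval 0.26 to 1.10, 1.60-fold, adjusted p = 0.0378 by edgeR).

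In controls Srxn1 did not pass, and its livers overlapped, with 39.7, 50.6, 56.9 and 51.1 CPM on the high-fat diet, against 47.7, 42.0, 38.5 and 56.7 CPM on chow (log2 fold change 0.10, SE 0.20, adjusted p = 0.854 by edgeR). High-fat knockouts averaged 70.7 ± 23.2 CPM and high-fat controls 49.6 ± 7.2 CPM (SD, n = 4 each), which overlapped, with a log2 fold change of 0.51 (SE 0.20, unadjusted p 0.0188, adjusted p = 0.154 by edgeR). The interaction was 0.58 (SE 0.28, adjusted p = 0.451), so a different diet effect in knockouts and controls was not shown. The Srxn1 call in knockouts was lost in 6 of the 8 fits that each left out 1 knockout liver: without high-fat knockout 1 it was 0.50 (adjusted p = 0.130 by edgeR), without high-fat knockout 2 it was 0.61 (0.114), and without chow knockout 1, 2, 3 or 4 the adjusted p was 0.0554 to 0.0883. With limma-voom it was 0.62 (adjusted p = 0.0525).

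Thioredoxin reductase 1, from Txnrd1 (chromosome 10, 82833951 to 82897712, plus strand), keeps cytosolic thioredoxin reduced. Txnrd1 was at 123, 139, 137 and 151 CPM in high-fat controls, against 164, 158, 180 and 182 CPM in chow controls, with no overlap. The log2 fold change was -0.32 (SE 0.12, unadjusted p 0.0183), which did not pass over all genes (adjusted p = 0.188 by edgeR). In knockouts the livers of the diets overlapped, with 161, 166, 134 and 139 CPM on the high-fat diet, against 141, 170, 132 and 151 CPM on chow (log2 fold change 0.01, SE 0.12, adjusted p = 0.956 by edgeR). The interaction for Txnrd1 was 0.33 (SE 0.17, adjusted p = 0.483 by edgeR). Like Keap1, then, Txnrd1 had its highest mean in chow controls, and over the 16 livers the log2 CPM of the pair had a Pearson r of 0.73 (Spearman 0.72), or 0.67 with group means removed (Spearman 0.59).

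**Figure D2:**
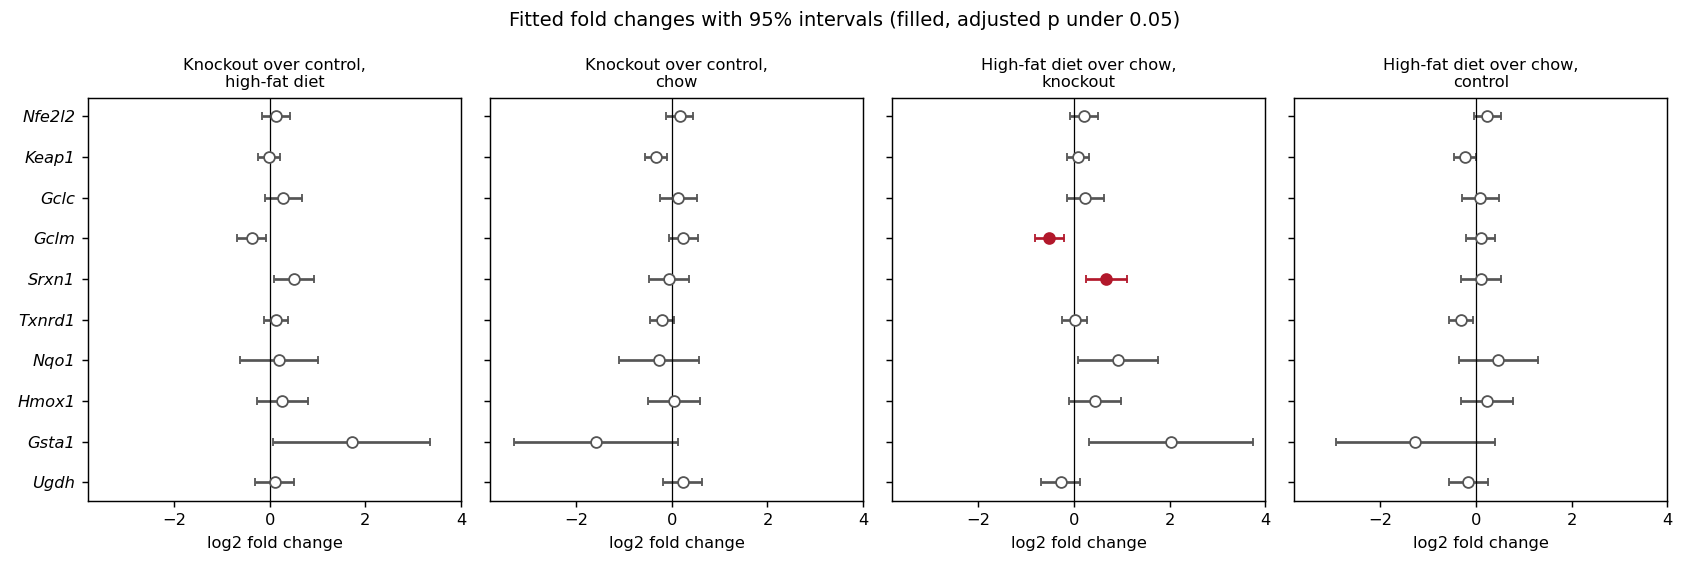
Fitted log2 fold changes (points) with 95% intervals (lines) of the 10 genes in the comparisons of knockout with control and of high-fat diet with chow, with filled points where the edgeR adjusted p was under 0.05. Filled points are Srxn1 (0.68) and Gclm (-0.52), for high-fat diet against chow in knockouts; the intervals of Gsta1 and Nqo1 are the widest.

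Nqo1 encodes a quinone reductase that is widely used as a readout of NRF2 (chromosome 8, 107388225 to 107403206, minus strand). It was at 12, 11.1, 5.22 and 10.5 CPM in high-fat knockouts, against 7.90, 3.50, 5.01 and 4.23 CPM in chow knockouts. High-fat knockouts 1, 2 and 4 were above all chow knockouts, as for Srxn1, and high-fat knockout 3 was within their range. The log2 fold change was 0.93 (SE 0.40, unadjusted p 0.0308, adjusted p = 0.132 by edgeR). Nqo1 passed in 5 of the alternatives, with 0.94 (SE 0.27, adjusted p = 0.0253) when high-fat control 3 was left out of the shared fit, 1.20 (0.00674) when high-fat control 3 and chow knockout 1 were left out, 1.63 (0.0275) in a model that also held the unspliced share, 0.94 (0.0446) with only the compared groups in the fit and 0.95 (0.00381) without the count filter.

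High-fat controls were at 4.0, 4.97, 18.3 and 6.75 CPM for Nqo1, against 6.29, 6.32, 4.98 and 6.99 CPM in chow controls. The 18.3 CPM of high-fat control 3, one of the libraries that stood apart, was the highest Nqo1 of all livers. With it, the log2 fold change of high-fat knockouts against high-fat controls was 0.19 (SE 0.38, adjusted p = 0.786 by edgeR). Without it the value was 0.90 (SE 0.30, adjusted p = 0.240), which also did not pass. The diet contrast in controls changed sign with this library, from 0.47 (adjusted p = 0.602 by edgeR) with it to -0.22 (0.727) without it.

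Haem oxygenase 1, from Hmox1 (chromosome 8, 75093621 to 75100589, plus strand), breaks haem down to biliverdin, iron and carbon monoxide, and in liver it is also known as a macrophage gene. Hmox1 was at 32.9, 16.9, 27.8 and 12.8 CPM in high-fat knockouts, against 14.6, 16.1, 26.8 and 18.1 CPM in high-fat controls. The high-fat knockouts spanned both the highest liver of the study and one of the lowest. The log2 fold change was 0.26 (SE 0.26, adjusted p = 0.552 by edgeR) against controls on the same diet and 0.44 (SE 0.26, adjusted p = 0.275) against knockouts on chow, which were at 16.8, 15.9, 14.9 and 19.3 CPM.

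Within the groups, Hmox1 followed the summed markers of Kupffer cells and a lymphocyte marker sum that was mostly Ptprc. With group means removed, log2 Hmox1 and the log2 sum of 8 Kupffer cell markers (Clec4f, Vsig4, Cd5l, Timd4, Adgre1, Marco, C1qa and C1qb) had a Pearson r of 0.80 and a Spearman rho of 0.84 over 16 livers, and r was 0.75 without chow control 3 and high-fat control 3. For 6 lymphocyte markers r was 0.80 and rho 0.83, but their sum was mostly the pan-leukocyte gene Ptprc. Ptprc averaged 43.4 CPM in high-fat knockouts and 22.8 CPM in chow knockouts. The next marker, Ms4a1, averaged 1.06 and 0.882 CPM there. Only 3 of the 6 passed the filter on low counts, so this r does not single out lymphocytes. For the 8 recruited macrophage markers, whose sum had Spp1 as its largest part, r was lower, at 0.40 (rho 0.32). The r of Hmox1 with the other 9 pathway genes lay between -0.43, with Keap1, and 0.25, with Gsta1. The Kupffer sum ranged from 313 to 603 CPM in high-fat knockouts, 266 to 656 in high-fat controls, 287 to 478 in chow knockouts and 274 to 740 in chow controls, and no marker was at 0 throughout a group. The lymphocyte sum was 28.3 to 64.3 CPM in high-fat knockouts, 23.5 to 39.6 in high-fat controls, 21.1 to 28.2 in chow knockouts and 13.9 to 32.3 in chow controls. The part of these cells in the Hmox1 values was not tested.

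**Figure D3:**
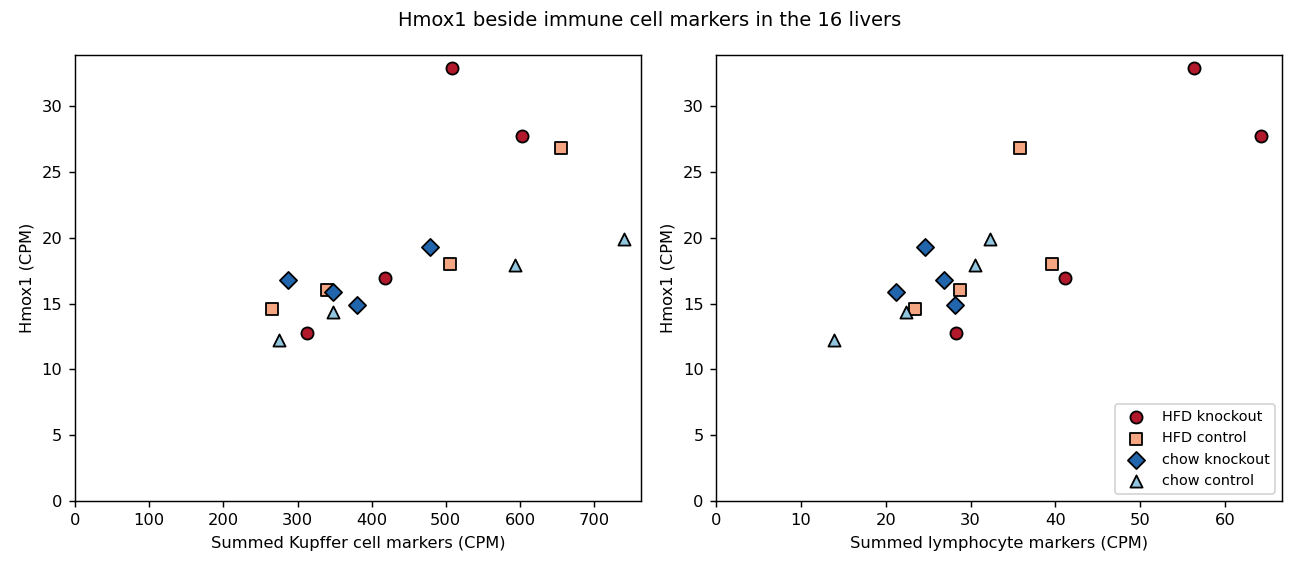
Hmox1 (CPM, y axis) against the summed CPM of Kupffer cell markers and of lymphocyte markers (x axes) in the 16 livers, coloured by group. The lymphocyte sum is mostly the pan-leukocyte gene Ptprc. Livers with a high marker sum had a high Hmox1, with Pearson r of 0.80 for each on the log2 scale with group means removed.

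The last pair acts in conjugation. Ugdh encodes UDP-glucose dehydrogenase, which makes the UDP-glucuronate that glucuronidation uses (chromosome 5, 65413221 to 65435949, minus strand). It averaged 155 ± 35.8 CPM in high-fat knockouts, 144 ± 18.6 in high-fat controls, 188 ± 39.4 in chow knockouts and 161 ± 36.1 in chow controls (SD, n = 4 each). Its groups overlapped in all 4 comparisons, and its log2 fold changes were between -0.28 and 0.22 (adjusted p = 0.362 to 0.770 by edgeR).

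Gsta1 encodes an alpha-class glutathione transferase (chromosome 9, 78230656 to 78242684, plus strand) and had few reads. The counts were 55, 43, 3 and 8 in high-fat knockouts, 2, 6, 14 and 6 in high-fat controls, 4, 3, 5 and 8 in chow knockouts and 7, 6, 12 and 57 in chow controls. High-fat knockouts 1 and 2 and chow control 4 were the livers above 14 counts. The log2 fold change was 1.72 (SE 0.78, unadjusted p 0.0420, adjusted p = 0.216 by edgeR) in high-fat knockouts against high-fat controls and -1.59 (SE 0.82, adjusted p = 0.544) in chow knockouts against chow controls. The interaction was 3.30 (SE 1.13, adjusted p = 0.301). Single livers carried much of these values: without chow control 4 the chow value was -0.56 (SE 0.83, adjusted p = 0.843 by edgeR) and the interaction 2.27 (SE 1.10, 0.5), and without high-fat knockout 1 the high-fat value was 1.14 (SE 0.83, 0.454). These values are uncertain because 90.5% of the 50-base words of Gsta1 transcripts also occur in another gene, with 75.7% of the words in Gm3776 and 46.6% in Gsta2. Gsta2 had 40 to 320 counts in a liver.

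Within the groups, Srxn1, Gsta1 and Ugdh moved together from liver to liver. With group means removed, the Pearson r over 16 livers was 0.89 for Srxn1 with Gsta1 (Spearman 0.81), 0.72 for Srxn1 with Ugdh (0.65) and 0.85 for Gsta1 with Ugdh (0.80). Without the 2 livers farthest from the median of the first gene of each pair, r was 0.84, 0.66 and 0.76. High-fat knockouts 1 and 2 were left out for the Srxn1 pairs, which kept chow control 4 (57 counts of Gsta1). High-fat knockout 1 and chow control 4 were left out for Gsta1 with Ugdh, which kept high-fat knockout 2 (43 counts). These values therefore do not show r without all the livers with a high Gsta1 count, and Gsta1 was close to the limit of detection. High-fat knockouts 1 and 2 were the highest of their group for all 3 genes and high-fat knockout 3 the lowest, and chow control 4 was the highest of its group for all 3. Nqo1 and Txnrd1 showed the same pattern, and Gclc shared it in the high-fat knockouts, so it is not particular to these 3 genes. Without removing group means, r was 0.82 for Srxn1 with Gsta1 (Spearman 0.59), 0.31 for Srxn1 with Ugdh (0.25) and 0.55 for Gsta1 with Ugdh (0.63). Without the same farthest livers these values were 0.54, 0.16 and 0.35, so they rest in part on those livers. The livers share library size and composition within each library, and r is given as a description.

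**Figure D4:**
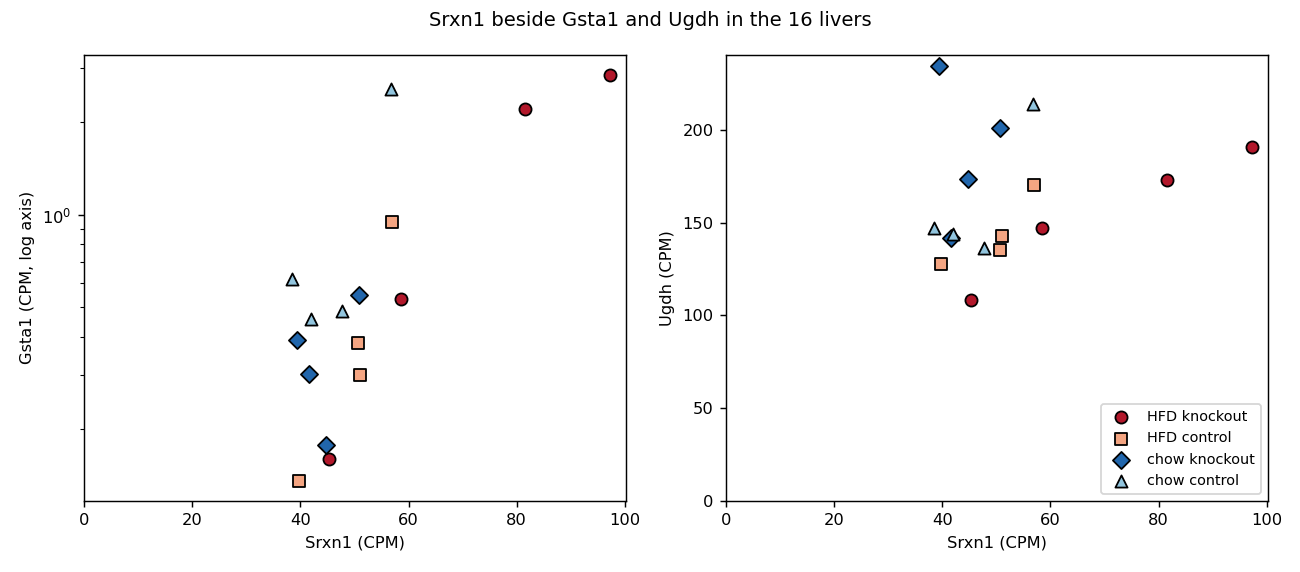
Srxn1 (CPM, x axis) against Gsta1 (CPM, log y axis) and Ugdh (CPM, y axis) in the 16 livers, coloured by group. High-fat knockouts 1 and 2 lie at the right with Srxn1 of 97.3 and 81.5 CPM, and chow control 4 is the liver with the highest Gsta1 and Ugdh among chow controls.

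Of the 45 pairs of the 10 genes, 38 had a positive r with group means removed and 14 had r above 0.5, with a median of 0.33. The same shares for pairs of all genes were not computed, so these counts do not set the pathway apart from other genes. Leaving out high-fat control 3 and chow knockout 1 also gave 14 pairs above 0.5, but not all the same pairs. Keap1 and Ugdh went from 0.385 to 0.556. Nqo1 and Gclm had an r of 0.83 (Spearman 0.68) that was 0.49 without high-fat control 3 and chow knockout 1, which hold the highest Nqo1 and the highest Gclm. Their r was 0.12 where group means were not removed. Outside the 10 genes, the transcripts most like Nqo1 over the 16 livers were Cryzl2 (Pearson r 0.88), Hexa (0.85), Gng10 (0.84), Parp12 (0.83) and Klf6 (0.83), and those most like Gclc were Enc1 (0.83), Ccn4 (0.80), Svep1 (0.80), Pcdh17 (0.80) and Adamts5 (0.78). These were picked as the highest r among all genes tested, so their r is high by choice. With group means removed, r was 0.78 to 0.87 for those picked for Nqo1 and 0.70 to 0.87 for those picked for Gclc. Values of these pairs without high-fat control 3 are not given.

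**Figure D5:**
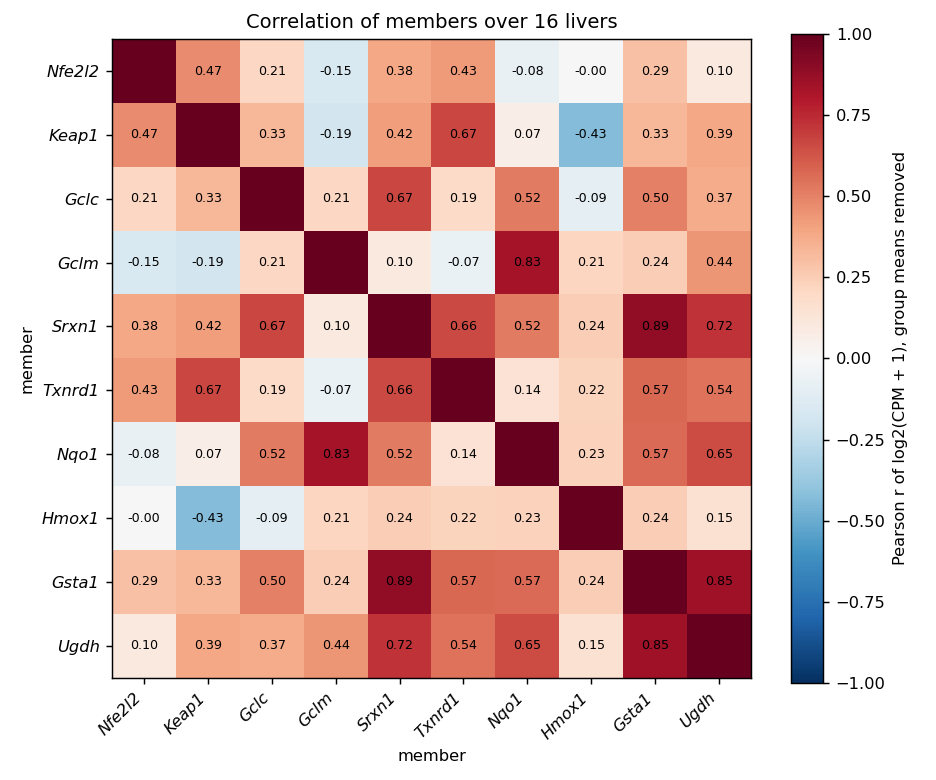
Pearson r between the log2(CPM + 1) of each pair of the 10 genes over 16 livers with group means removed (colour scale, genes on both axes). The block of Srxn1, Gsta1 and Ugdh has r of 0.72 to 0.89.

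Cell markers moved with the diet contrast in knockouts, in which Srxn1 and Gclm passed. Of 8 recruited macrophage markers 5 rose in high-fat knockouts, where 5.21% of all genes rose. Among the 5 were Gpnmb (4.68, SE 0.92, adjusted p = 0.00652 by edgeR) and Trem2 (3.08, SE 0.65, adjusted p = 0.00911). The others did not pass, with -0.84 (SE 0.35, adjusted p = 0.124 by edgeR) for Cd9, 0.17 (SE 0.35, 0.787) for Spp1 and 1.05 (SE 0.78, 0.395) for Ly6c2. Their summed level was 58.0 to 183 CPM in high-fat knockouts, against 69.2 to 91.3 CPM in chow knockouts. High-fat knockouts 1 and 2, the highest for Srxn1, had 183 and 148 CPM, and high-fat knockouts 3 and 4 had 69.7 and 58.0 CPM. By group means, the largest part of this sum was Spp1, at 65.2 CPM in high-fat knockouts and 58.0 CPM in chow knockouts. Gpnmb averaged 9.88 and 0.347 CPM there. Srxn1 and this sum had a Pearson r of 0.68 with group means removed, and 0.52 without high-fat knockouts 1 and 2. Where group means were not removed, r was 0.66, and 0.06 without those livers. Because Spp1, which did not pass, weighs most in the sum, these r do not single out recruited macrophages. Of 6 hepatocyte markers 2 fell, where 5.35% of all genes fell: Alb (-1.0, SE 0.16, adjusted p = 0.00265 by edgeR) and Tat (-1.41, SE 0.31, 0.0112). The hepatocyte sum was 74800 to 94500 CPM in high-fat knockouts, against 134000 to 159000 CPM in chow knockouts. Gclm and the hepatocyte sum had a Pearson r of 0.73 over the livers and 0.58 with group means removed. No marker of these lists was at 0 throughout a group, and the part of cell makeup in the Srxn1 and Gclm results was not tested. In high-fat knockouts against high-fat controls 8 of 8 recruited macrophage markers had values above 0 with a median of 0.98, 0 passed, and the sum in high-fat controls was 46.7 to 106 CPM.

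Of 12 genes for proteins that hold, degrade or partner NRF2, 1 passed in 1 comparison, the diet in knockouts, where 10.6% of all genes passed. This was Cul3, the scaffold of the ligase that KEAP1 recruits. It was 69.9 ± 4.01 CPM in high-fat knockouts and 103 ± 16.8 CPM in chow knockouts (SD, n = 4 each), a log2 fold change of -0.56 (SE 0.14, adjusted p = 0.0206 by edgeR). The small MAF partners had positive values on the high-fat diet in knockouts against controls without passing, with 0.84 (SE 0.37, adjusted p = 0.197) for Maff, 0.48 (SE 0.21, 0.211) for Mafk and 0.35 (SE 0.31, 0.506) for Mafg. Bach1, a repressor at antioxidant response elements, had 0.17 (SE 0.26, 0.717) there. For knockout against control on chow the values were 0.04 for Maff, -0.32 for Mafk and -0.10 for Mafg, and none passed. There, 1 of the 12 had an unadjusted p under 0.05, against 9.52% of all genes. This was Dpp3 (-0.42, SE 0.12, adjusted p = 0.353 by edgeR).

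Of 40 further genes counted as NRF2 targets, 38 were tested (Gpx2 and Slc7a11 were under the filter). For knockout against control, 0 passed on the high-fat diet, with a median of -0.04. There, 11 of the 38 had an unadjusted p under 0.05, against 21.4% of all genes. On chow 0 passed, with a median of -0.10, and 2 of the 38 had an unadjusted p under 0.05, against 9.52% of all genes. On the high-fat diet the smallest adjusted p of the list was that of Pgd, an NADPH-making enzyme of the pentose phosphate pathway (0.67, SE 0.19, adjusted p = 0.103 by edgeR). For the high-fat diet against chow in knockouts, 2 of the 38 rose and 2 fell, with a median of -0.19. This is close to the share of all genes called there, 10.6% (5.21% higher and 5.35% lower). Cbr3, a carbonyl reductase, rose to 1.72 ± 1.44 CPM in high-fat knockouts, against 0.444 ± 0.201 CPM in chow knockouts (SD, n = 4 each), a log2 fold change of 1.91 (SE 0.58, adjusted p = 0.0427 by edgeR), and Ugt1a6a, a glucuronosyltransferase, rose by 1.37 (SE 0.37, adjusted p = 0.0259). Gstp1, a pi-class glutathione transferase, fell by 1.21 (SE 0.34, adjusted p = 0.0330 by edgeR) and Pir by 0.58 (SE 0.16, 0.0331). In controls 1 of the 38 rose and 1 fell with the diet, where 1.83% of all genes passed. Ugt1a6a rose by 1.55 (SE 0.37, adjusted p = 0.0415 by edgeR). Pgd fell to 22.3 ± 3.40 CPM in high-fat controls, against 38.4 ± 6.39 CPM in chow controls (SD, n = 4 each), a log2 fold change of -0.79 (SE 0.19, adjusted p = 0.0401 by edgeR). Over 16 alternatives each, Cul3 lost its call in 6, Gstp1 in 7, Cbr3 in 10 and Pir in 11, Pgd in 9, and Ugt1a6a in 7 in knockouts and 9 in controls, with no change of sign. With the unspliced share in the model, Pir was -0.26 (adjusted p = 0.351 by edgeR) and Ugt1a6a 0.40 (0.423) in knockouts and 0.63 (0.160) in controls, and without high-fat knockout 1 Cbr3 was 1.26 (0.182).

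The mu-class glutathione transferases, which are also induced through NRF2, are given for comparison. Gstm3 was higher in high-fat knockouts than in high-fat controls, by 2.52 on the log2 scale (SE 0.32, adjusted p = 0.00376 by edgeR). It averaged 75.5 ± 33.9 CPM in these knockouts and 13.2 ± 4.94 CPM in these controls (SD, n = 4 each). The call was lost in 2 of 16 alternatives, with the same 2.52 when the fit held only the compared groups (adjusted p = 0.0853) and 2.64 when it held the unspliced share (0.0535). It was the 1 of 7 mu-class genes that passed in that contrast, where 0.111% of all genes passed. In the same livers none of Nfe2l2, Keap1, Nqo1, Gclc, Gclm, Hmox1, Srxn1, Txnrd1, Gsta1 and Ugdh passed. On chow, Gstm3 averaged 51.1 CPM in knockouts and 38.2 CPM in controls. Its gap on the high-fat diet therefore rests in part on a fall with the diet in controls (-1.53, SE 0.31, adjusted p = 0.0162 by edgeR). For the diet in knockouts, 0 of 7 mu-class genes passed.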

How the data were processed

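Total RNA from whole liver was made into libraries with the Illumina TruSeq Stranded kit after Ribo-Zero Gold depletion, per the labels. The authors deposited raw counts per Ensembl gene, whole numbers that were not normalized. The submitters' processing notes name GRCm38, STAR 2.5.4a, featureCounts 1.5.1 and DESeq2. The strand setting and the handling of multiply mapped reads are not given in these sources.

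The sample titles gave diet and genotype, and all 16 columns matched a sample. Genes were filtered with filterByExpr (minimum count 10) and scaled with TMM. In edgeR 4.0.16 (R 4.3.3, limma 3.58.1) a single model with a term per group held all 16 livers, and the quasi-likelihood test gave the 4 comparisons and the interaction. Benjamini-Hochberg adjustment covered the 14351 genes tested, calls were made under 0.05, and the common biological coefficient of variation was 0.247. The procedure was also run on simulated counts that held no libraries standing apart. The outcome is not given, so that run backs no result here. Degs1 was also tested by an exact permutation test of log2(CPM + 1) over 70 assignments. Correlations use log2(CPM + 1). Pairs of livers within groups differed by a chi-square per degree of freedom of 12.28 to 125.6, so none agreed within sampling noise. Intervals are those of the fitted fold changes and rest on the spread between livers, and a floor of 3 counts covers counting error only.

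The members, the lists and the alternatives were chosen with earlier results of these data known. The text names all 10 members, Degs1, of each list the genes that passed and up to 4 with the smallest p in a comparison, and the 5 genes most like Nqo1 and Gclc. Mafg and Bach1 were named for their roles after their values were seen, as were the examples from the marker lists. Alternatives were DESeq2 1.42.0, RLE and upper-quartile factors, no filter, limma-voom, a fit of only the groups compared, the unspliced share as a covariate, each library left out, and both libraries standing apart left out. Promoter sequences came from RefSeq (GRCm38.p6), positions and exon lengths from GENCODE.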

Additional observations from a re-analysis of the deposited data

Results flagged for a closer look

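Chow control 4 stood far from the other chow controls for 2 of the 10 genes. For Gsta1 it was at 2.57 CPM, with the other chow controls at 0.457 to 0.616 CPM, so that 0.925 of the range of the group was the gap to its nearest neighbour. For Ugdh it was at 214.4 CPM, with the others at 136.5 to 147.4 CPM and a gap of 0.860 of the range. Both gaps are past the 95% limit of Dixon's test for 4 values. Chance alone passes it in about 1 of 20 groups, and 2 of the 40 combinations of gene and group passed it.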

How the results depend on the processing

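Over 866 alternative values of the 50 fold changes (10 genes in 5 contrasts), 812 kept their direction and their side of the threshold, 18 no longer passed, 6 newly passed and 30 changed sign. The count of the 10 genes that passed was 0 in every alternative for knockout against control on each diet and for the high-fat diet in controls. In knockouts the diet count was 2, and it was 1 with upper-quartile factors (Srxn1), 1 with limma-voom (Gclm), 3 with no filter (Nqo1, Srxn1 and Gsta1), 3 with only the compared groups or without the libraries standing apart (Nqo1, Gclm and Srxn1), and 0 to 3 with 1 library left out (3 without high-fat control 3). The interaction count was 1 with no filter (Gsta1, 3.32, adjusted p = 0.0208 by edgeR).

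Among fold changes that did not pass, some changed sign. With upper-quartile factors Keap1 was 0.0299 for knockout on the high-fat diet and Nfe2l2 0.0189 for the interaction. With the unspliced covariate Nqo1 was 0.233 and Srxn1 0.0436 for knockout on chow. Without the libraries standing apart Nqo1 was -0.222 and Gclm -0.0418 for diet in controls, Txnrd1 -0.00618 for diet in knockouts and Ugdh 0.101 for the interaction. With 1 library left out, the ranges for the diet in controls were -0.0258 to 0.217 for Gclc, -0.0417 to 0.215 for Gclm, -0.223 to 0.728 for Nqo1 and -0.249 to 0.0378 for Ugdh. For knockout on chow they were -0.0522 to 0.175 for Hmox1 and -0.141 to 0.0567 for Srxn1. For knockout on the high-fat diet they were -0.0843 to 0.0317 for Keap1, -0.0499 to 0.899 for Nqo1 and -0.0122 to 0.239 for Ugdh. For diet in knockouts Txnrd1 ran from -0.0278 to 0.0953. For the interaction they were -0.0369 to 0.436 for Hmox1, -0.114 to 0.0644 for Nfe2l2 and -0.304 to 0.00665 for Ugdh. The cause was not tested.

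Over all genes the counts ran from 0 to 964 for knockout on the high-fat diet (16 as reported), 0 to 308 on chow (2), 465 to 3273 for diet in knockouts (1516), 75 to 1219 for diet in controls (262) and 0 to 259 for the interaction (0). No paired analysis was possible because each liver has its own animal number and the groups share no replicate numbers in the labels. Depth limits Gsta1 most.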

Other observations

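Of 16 antioxidant enzymes that are not counted as classic NRF2 targets, 3 fell in high-fat knockouts against chow knockouts, where 5.35% of all genes fell. Sod1, the cytosolic superoxide dismutase, was 317 ± 27.2 CPM in high-fat knockouts and 464 ± 58.3 CPM in chow knockouts (SD, n = 4 each), a log2 fold change of -0.55 (SE 0.16, adjusted p = 0.0376 by edgeR). Catalase (Cat), which removes peroxide in peroxisomes, fell by 0.43 (SE 0.13, adjusted p = 0.0378 by edgeR), and Txnrd3, a thioredoxin glutathione reductase, fell by 0.57 (SE 0.16, 0.0323). Over 16 alternatives these calls were lost in 10, 11 and 9, with no change of sign. With the unspliced share in the model, Sod1 was -0.17 (adjusted p = 0.473 by edgeR) and Txnrd3 -0.40 (0.213). Against high-fat controls, 15 of the 16 had values below 0 in high-fat knockouts, with a median of -0.40, against 0.03 for all genes. There, 8 had an unadjusted p under 0.05, against 21.4% of all genes, and 0 passed with edgeR. For some of the 16 the highest high-fat control stood well above the rest. Gpx4 reached 286 CPM there with a median of 121 CPM, against a median of 111 CPM in high-fat knockouts. Prdx4 reached 130 CPM with a median of 65.2 CPM, against 56.0 CPM. Sod2 was even, at 189 to 205 CPM in high-fat controls and 155 to 167 CPM in high-fat knockouts. Values of this list without high-fat control 3 are not given. The smallest adjusted p were those of Prdx5, a peroxiredoxin (-0.61, SE 0.17, adjusted p = 0.103 by edgeR), and Sod1 (-0.55, SE 0.16, 0.107). The hepatocyte markers were also below 0 there, 6 of 6 with a median of -0.30 and 0 called, and their part in these values was not tested.

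Beside Ugdh, 10 genes of the route from UDP-glucose to glucuronides were followed. For the diet, 2 of the 10 passed in knockouts, both lower, where 10.6% of all genes passed (5.35% lower). In controls 1 of the 10 passed, where 1.83% of all genes did. In knockouts the glucuronosyltransferase Ugt2b1 fell to 317 ± 33.7 CPM on the high-fat diet, against 608 ± 140 CPM on chow (SD, n = 4 each), a log2 fold change of -0.94 (SE 0.21, adjusted p = 0.0126 by edgeR), and Ugt2b5 fell too (-0.85, SE 0.21, adjusted p = 0.0157 by edgeR). Over 16 alternatives Ugt2b1 lost its call in 2 and Ugt2b5 in 3, and with the unspliced share in the model they were -0.84 (adjusted p = 0.0607 by edgeR) and -0.38 (0.185). In controls Ugt1a9 fell to 10.5 ± 3.17 CPM on the high-fat diet, against 34.4 ± 2.29 CPM on chow (SD, n = 4 each), a log2 fold change of -1.72 (SE 0.31, adjusted p = 0.00875 by edgeR). The mu-class genes Gstm1 (-1.12, SE 0.19, adjusted p = 0.00614) and Gstm3 (-1.53, SE 0.31, adjusted p = 0.0162) also fell with the diet in controls. The Gstm3 call there was lost without high-fat control 1 (-1.34, adjusted p = 0.0568), chow control 2 (-1.43, 0.0626) or chow control 4 (-1.46, 0.0534).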
